A study of Mus musculus with 95 samples.

Results

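The 6 genes described here, Dazl, Taf7l, Tex101, Slc25a31, Stk31 and Sohlh2, were taken by name as germ cell identity genes, out of 23377 genes in the count table. This was done with earlier results of these data known. They were followed across 7 genotypes of mouse embryonic stem cells by RNA-seq, and across 80 ChIP-seq peak lists by the peaks that lay within 2.5 kb of an annotated start of each gene. All 6 passed the filter on low counts that left 15464 genes for testing. Every one of them rose in Pcgf6-/- cells, by 2.93-fold for Stk31 to 43.3-fold for Slc25a31. In the PCGF6 list of wild-type cells 5 of the 6 had a peak, where 7.47% of genes did. In the lists of Pcgf6-/- cells none of the 6 had a PCGF6 or RING1B peak, where 2.12% and 13% of genes did. All 6 had an H3K4me3 peak there, as did 89.8% of genes.

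Germ cell genes are kept silent in most cells of the body, in part by DNA methylation of their promoters and in part by repressor complexes. One of these, called PRC1.6, joins the Polycomb protein PCGF6 and the ubiquitin ligase RING1A or RING1B to the DNA-binding proteins MGA with MAX, which bind the E-box CACGTG, and E2F6 with a DP partner. MGA also has a T-box domain. H3K4me3 is a histone mark found at the starts of active and poised genes, H2AK119ub1 is the mark written by RING1A/B, and H3K27me3 is the mark written by PRC2, of which SUZ12 is a subunit. Among the members, Sohlh2 encodes a helix-loop-helix transcription factor of early germ cells that pairs with SOHLH1. Taf7l encodes the germ cell form of the TFIID subunit TAF7. Dazl encodes an RNA-binding protein that controls translation in germ cells, and Stk31 a protein with a Tudor and a kinase-like domain that is made in germ cells. Slc25a31 encodes the ADP/ATP carrier of germ cell mitochondria, and Tex101 a surface glycoprotein of male germ cells.

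All cells were of the mouse embryonic stem cell line E14, or derived from it, apart from the Ring1a-/- Ring1b fl/fl Rosa26::CreERT2 line, and the medium held serum, LIF and inhibitors of 2 kinases, GSK3β and MEK1/2. The knockouts were clones made with Cas9: Pcgf1-/-, Pcgf2/4-/-, Pcgf3/5-/-, Pcgf6-/-, Pcgf1/2/4-/- and Pcgf3/5/6-/-. Bmi1 encodes PCGF4, and lines without several genes came from repeated editing of 1 clone. Both libraries of a line carried the same line name, so a difference between lines is a difference between clones. Knockdowns for ChIP used lentiviral hairpins labelled shMGA, shMGAdHLH, shE2F6 and shE2F6-MGAdHLH, with shCtr as their control. The peak lists also included PCGF3 under hairpins labelled shUsf1 and shUsf2, and PCGF1 and PCGF2 in cells labelled Ezh1/2-/-. What shMGAdHLH targets is named here only by that label.

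RNA-seq libraries held 2147968 to 7848161 counts, with 2 libraries for each of the 7 genotypes. The 2 wild-type libraries differed by less than sampling noise (chi-square of 0.958 per degree of freedom over 14899 genes, against 1.18 to 19.5 in the other pairs). They were therefore counted as 1 sample in means and SDs, and both values are given below with no SD. The edgeR fit held them as 2 libraries, so every SE and adjusted p against wild-type, the interactions included, treats them as 2. Calls that changed when they were summed into 1 sample are named beside the result. Nothing in the labels says that the libraries of a line came from separate cultures, so p-values measure only the spread between libraries, which may be technical. Pcgf6 had 0 counts in both Pcgf6-/- libraries against 36.2 and 34.3 CPM (counts scaled to a common library size) in wild-type, at least 171-fold lower with a floor of 3 counts over the group. In the libraries labelled Pcgf3/5/6-/-, Pcgf6 stood at 42.0 and 37.2 CPM and did not pass the edgeR test against the wild-type libraries (adjusted p = 0.338, with a log2 fold change of 0.17 ± 0.14 SE). An edit that shifts the reading frame can leave the transcript, and whether this one did was not tested, so the genotype of these libraries rests on their label. Pcgf1 fell from 66.1 and 61 CPM to 4.81 and 3.2 in Pcgf1-/- and to 0.534 and 0.903 in the libraries labelled Pcgf1/2/4-/-. Pcgf2 stood at 41 to 57.1 CPM in the libraries labelled Pcgf2/4-/- and Pcgf1/2/4-/-, beside 42.9 and 48.9 in wild-type, and Bmi1 at 12.1 to 19.9 beside 16.1 and 14.2. Pcgf3 stood at 11.4 and 12.8 CPM in Pcgf3/5-/- beside 16.4 and 15.5, and Pcgf5 at 5.48 and 4.6 beside 13 and 10.8. In the libraries labelled Pcgf3/5/6-/- Pcgf3 stood at 13.6 and 13.5 CPM and Pcgf5 at 16.4 and 13.5. These genotypes are therefore named as labelled throughout. The deposited lists of PCGF2 peaks held 4472 in wild-type and 1050 in Pcgf2/4-/- cells, and those of PCGF3 peaks 223 in wild-type and 21 in Pcgf3/5-/- cells.

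The stretch upstream of 4 of the 6 genes is printed here because it holds, or lacks, the letters that the DNA-binding subunits of the complex are known for. The letters searched, on both strands, were CACGTG (E-box), TCCCGC (the core of the E2F6 site) and GGTGTGA (part of the T-box site), within 250 bases before to 50 bases after each start in RefSeq (table of build GRCm38.p6). All 6 genes matched the table, with 7 promoters in all since Stk31 has 2, and each promoter was placed by exact match around its gene in the build NCBIM37, whose coordinates are given. Capitals mark the matches, each sequence reads 5′ to 3′ on the gene's strand, no base of the 4 upstream stretches lies in an annotated exon, and the short Slc25a31 site lies in the first exon of its gene.
Slc25a31: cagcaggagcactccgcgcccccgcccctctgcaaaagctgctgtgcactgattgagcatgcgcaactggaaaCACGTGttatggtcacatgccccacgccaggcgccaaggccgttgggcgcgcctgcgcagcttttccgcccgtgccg
Slc25a31 site: cagcgcccgcttTCCCGCcagggtaaagct
Stk31: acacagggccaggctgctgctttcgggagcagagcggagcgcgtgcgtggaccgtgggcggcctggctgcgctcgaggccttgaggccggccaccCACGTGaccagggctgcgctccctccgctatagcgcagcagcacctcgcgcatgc
Taf7l: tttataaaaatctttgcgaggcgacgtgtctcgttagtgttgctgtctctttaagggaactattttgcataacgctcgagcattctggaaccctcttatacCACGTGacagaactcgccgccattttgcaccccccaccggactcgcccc
Dazl: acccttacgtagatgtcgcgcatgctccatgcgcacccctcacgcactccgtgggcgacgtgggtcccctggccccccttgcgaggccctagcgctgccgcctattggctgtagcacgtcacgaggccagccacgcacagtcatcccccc
The Slc25a31 stretch lies at chr3:40512627-40512776 on the plus strand, and its E-box begins 93 bases before the RefSeq start. The short site at chr3:40512801-40512830, on the plus strand, holds the E2F6 core, which begins at base 21 of the transcript. The Stk31 stretch lies at chr6:49345388-49345537 on the plus strand, and its E-box begins 55 bases before the first RefSeq start and 120 before the other. The Taf7l stretch lies at chrX:131011030-131011179 on the minus strand, and its E-box begins 49 bases before the start. The Dazl stretch, at chr17:50432946-50433095 on the minus strand, holds none of the letters searched.

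Thus 3 of the 6 genes, Slc25a31, Stk31 and Taf7l, had an E-box in the promoter window, beside 7.15% of the 32851 promoters of the same length in the table. The E2F6 core was present in 1 of the 6 genes, Slc25a31, beside 20% of all promoters. No member held the T-box letters, which 3.98% of all promoters did. Dazl, Tex101 and Sohlh2 had none of these letters in the window, which says only that they are not written there. Over all PCGF6 peaks of wild-type cells, 25.7% of the 1868 peaks had an E-box within the 300 bases around the summit, against 7.68% of the 1042 peaks in the PCGF6 list of Pcgf6-/- cells.

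In the annotation GENCODE M1, all 6 are protein-coding genes. Dazl (ENSMUSG00000010592.7) lies at chr17:50418719-50432924 on the minus strand with 2 annotated starts, and Taf7l (ENSMUSG00000009596.3) at chrX:130994657-131011029 on the minus strand with 3. Tex101 (ENSMUSG00000062773.5) lies at chr7:25453031-25457069 on the minus strand, and Slc25a31 (ENSMUSG00000069041.6) at chr3:40512777-40529515 on the plus strand. Stk31 (ENSMUSG00000023403.8) lies at chr6:49345603-49419500 and Sohlh2 (ENSMUSG00000027794.4) at chr3:54985950-55013879, both on the plus strand. Stk31 overlaps the antisense pseudogene Gm17060. Whether the counting used strand is not given in the sources used here, so the reads of this pair may not be fully separated.

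The level of each gene was highest, or within the top pair of genotypes, in Pcgf6-/- cells. In wild-type cells Slc25a31 stood at 3.85 and 4.78 CPM, and in Pcgf6-/- cells at 180.1 and 196 CPM. It rose 43.3-fold (log2 fold change 5.44 ± 0.18 SE, edgeR adjusted p = 1.14e-10). Taf7l went from 6.99 and 4.50 CPM to 92.1 and 99.9 CPM (log2 fold change 4.06 ± 0.19 SE, adjusted p = 1.27e-09). These genes encode the mitochondrial carrier and the TFIID subunit, and both have a widely expressed counterpart that did not pass the test: Slc25a5 had a log2 fold change of -0.10 ± 0.31 SE (adjusted p = 0.855) and Taf7 of 0.03 ± 0.25 SE (adjusted p = 0.951).

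Tex101 stood at 14.6 and 15.8 CPM in wild-type and at 113 and 118 CPM in Pcgf6-/- cells, 7.61-fold higher (log2 fold change 2.93 ± 0.16 SE, edgeR adjusted p = 6.27e-09). Sohlh2, at 39.4 and 32.4 CPM before, stood at 238 and 249 CPM (log2 fold change 2.76 ± 0.13 SE, adjusted p = 9.81e-10). Dazl went from 30.2 and 31.5 CPM to 171 and 191 CPM (log2 fold change 2.55 ± 0.13 SE, adjusted p = 2.2e-09). Stk31 went from 78.8 and 75.5 CPM to 216 and 236 CPM (log2 fold change 1.55 ± 0.12 SE, adjusted p = 2.07e-07). For none of the 6 did a Pcgf6-/- library overlap the wild-type libraries. The share of all genes tested without such overlap was not counted. In bulk RNA, more cells that express a gene and more RNA per cell cannot be told apart.

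All 6 members were called higher and 0 lower in Pcgf6-/- against wild-type, also where a log2 fold change of at least 1 was required. Of the 15464 genes tested, 27.8% were called higher and 18.6% lower in that comparison. The members' median log2 fold change was 2.85, beside 0.026 over all genes tested. The size differed widely among them, with Slc25a31 at rank 536 from the highest log2 fold change and Stk31 at rank 2434. The authors' deposited table gave log2 fold changes of 1.58 for Stk31 to 5.48 for Slc25a31 in a Pcgf6 knockout against wild-type, with all 6 members higher. The knockout line is named differently in that table and in the count table, and whether both are the same clone was not settled. Scaled to exon length, CPM per kb in Pcgf6-/- cells ran from 42.8 for Taf7l to 116 for Slc25a31, and in wild-type cells from 2.56 for Taf7l to 23.8 for Stk31.

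**Figure D1:**
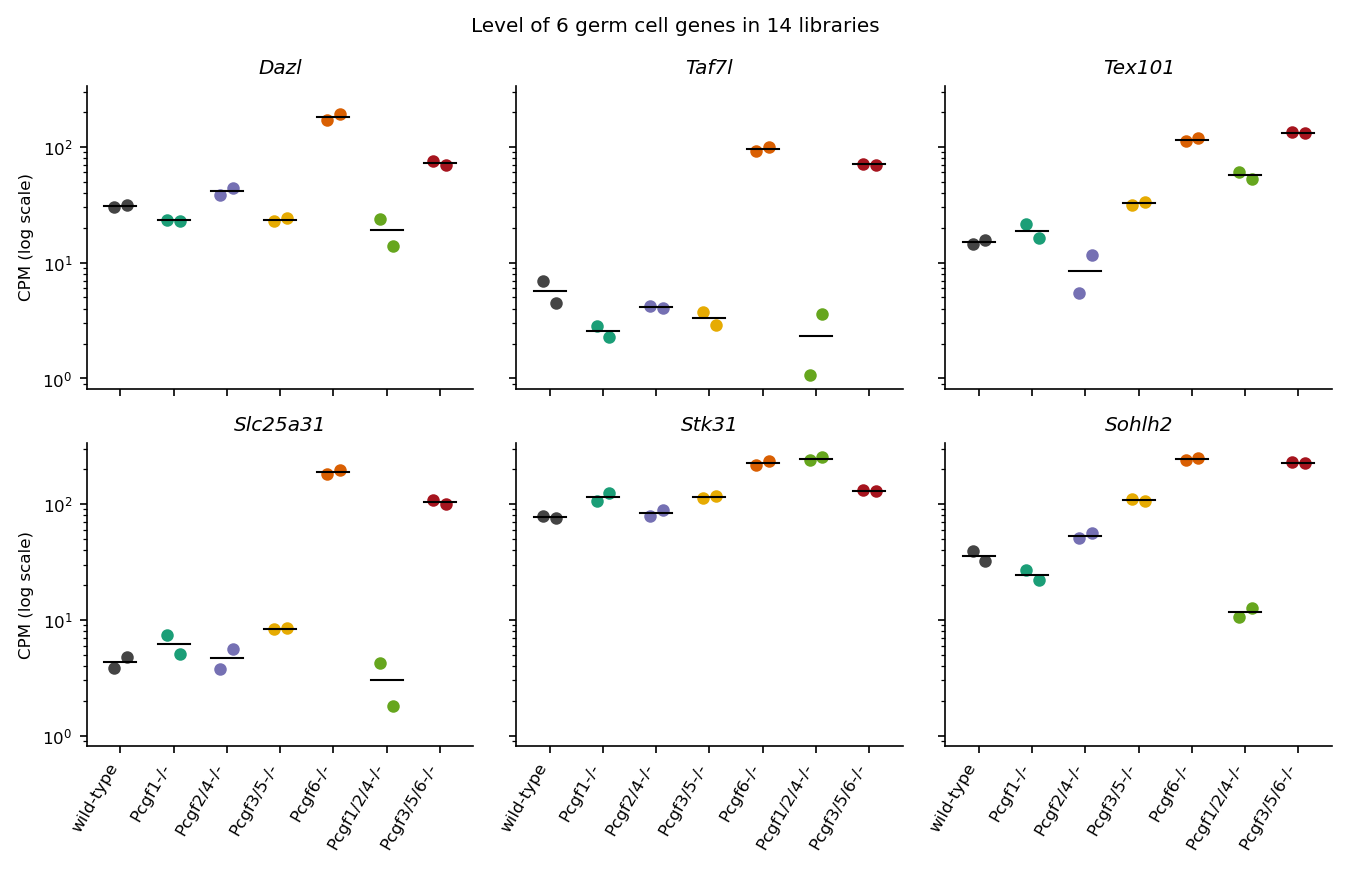
CPM of the 6 genes on a log scale in each of the 14 libraries, by genotype. Each point is 1 library and each line the mean of the pair. In all 6 panels both Pcgf6-/- libraries and both libraries labelled Pcgf3/5/6-/- lie above the wild-type pair, while libraries labelled Pcgf1/2/4-/- lie above wild-type in Tex101 and Stk31.

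In Pcgf3/5-/- cells 4 of the 6 genes were higher than in wild-type and 0 lower past the test, where 11.1% of genes tested were higher and 10.4% lower. Sohlh2, the transcription factor, changed most, with 110 and 107 CPM in Pcgf3/5-/- cells (3.01-fold, log2 fold change 1.59 ± 0.13 SE, edgeR adjusted p = 1.42e-06). Tex101 stood at 31.6 and 33.6 CPM, 2.14-fold above wild-type (adjusted p = 0.000624). Both Slc25a31, at 8.29 and 8.44 CPM, and Stk31, at 112 and 118 CPM, were higher by less than 2-fold (adjusted p of 0.0106 and 0.00461). Dazl and Taf7l lay below wild-type without passing the test (log2 fold changes -0.40 ± 0.14 SE and -0.76 ± 0.28 SE, adjusted p of 0.0616 and 0.0702). The members' median log2 fold change was 0.76, beside 0 over all genes. The call for Slc25a31 was lost without wild-type replicate 1 or without Pcgf3/5-/- replicate 1, and that for Stk31 without wild-type replicate 2.

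The libraries labelled Pcgf3/5/6-/- had all 6 genes higher than wild-type and 0 lower, where 28% of genes tested were higher and 25.3% lower. Slc25a31 stood at 109 and 99.7 CPM (24-fold, log2 fold change 4.59 ± 0.18 SE, edgeR adjusted p = 5.68e-10) and Taf7l at 70.8 and 70.3 CPM (12.2-fold, adjusted p = 8.84e-09). Tex101 reached 134 and 131 CPM (8.73-fold, adjusted p = 6.43e-09), and Sohlh2 231 and 225 CPM (6.36-fold, adjusted p = 1.88e-09). Dazl, at 74.9 and 69.3 CPM, was 2.33-fold higher (adjusted p = 5.62e-06), and Stk31, at 132 and 129 CPM, 1.69-fold (adjusted p = 0.000166). With a log2 fold change of at least 1 required, 5 of the 6 were higher, without Stk31 at a log2 fold change of 0.76. None of these libraries overlapped wild-type in any of the 6 genes, again without a count of such genes over all genes tested. The median log2 fold change of the 6 was 2.90, beside 0.048 over all genes.

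Set against Pcgf6-/- itself, the libraries labelled Pcgf3/5/6-/- had 4 of the 6 genes lower and 0 higher, where 27% of genes tested were lower and 19% higher. Dazl was 2.51-fold lower (log2 fold change -1.33 ± 0.13 SE, edgeR adjusted p = 3.3e-06), Slc25a31 1.81-fold (adjusted p = 0.000123) and Stk31 1.73-fold (adjusted p = 0.000147). Taf7l was 1.36-fold lower (adjusted p = 0.0306), a call that was lost without any 1 of the 4 libraries compared and with DESeq2. Tex101 (log2 fold change 0.20 ± 0.14 SE, adjusted p = 0.269) and Sohlh2 (-0.10 ± 0.12 SE, adjusted p = 0.526) did not pass the test. Against Pcgf3/5-/- cells, 5 of the 6 were higher and 0 lower, where 27.1% of genes tested were higher and 24.7% lower. Stk31 did not pass that test (log2 fold change 0.18 ± 0.12 SE, adjusted p = 0.237).

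The change from Pcgf3/5-/- cells to the libraries labelled Pcgf3/5/6-/- was thus smaller for most of the genes than that from wild-type to Pcgf6-/- cells. This difference was tested itself, in the same edgeR fit, after the values had been seen. It rests on the label of the Pcgf3/5/6-/- libraries, in which Pcgf6 stood at 42.0 and 37.2 CPM. It was called lower for 5 of the 6 genes and higher for 0, where 20.2% of genes tested were called lower and 14.6% higher. Slc25a31 differed by -1.80 ± 0.27 SE on the log2 scale (adjusted p = 0.000174), Sohlh2 by -1.69 ± 0.17 SE (adjusted p = 6.91e-06) and Stk31 by -1.37 ± 0.17 SE (adjusted p = 5.3e-05). Dazl differed by -0.93 ± 0.19 SE (adjusted p = 0.00199) and Tex101 by -0.90 ± 0.23 SE (adjusted p = 0.00705). Taf7l did not pass (0.32 ± 0.32 SE, adjusted p = 0.485). Under 15 alternatives, among them the fit with the wild-type libraries summed, 1 of these calls was lost, that of Tex101 without Pcgf3/5/6-/- replicate 2 (adjusted p = 0.0526). For Sohlh2, Tex101, Stk31 and Slc25a31 the Pcgf3/5-/- cells from which the change is measured were already above wild-type.

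**Figure D2:**
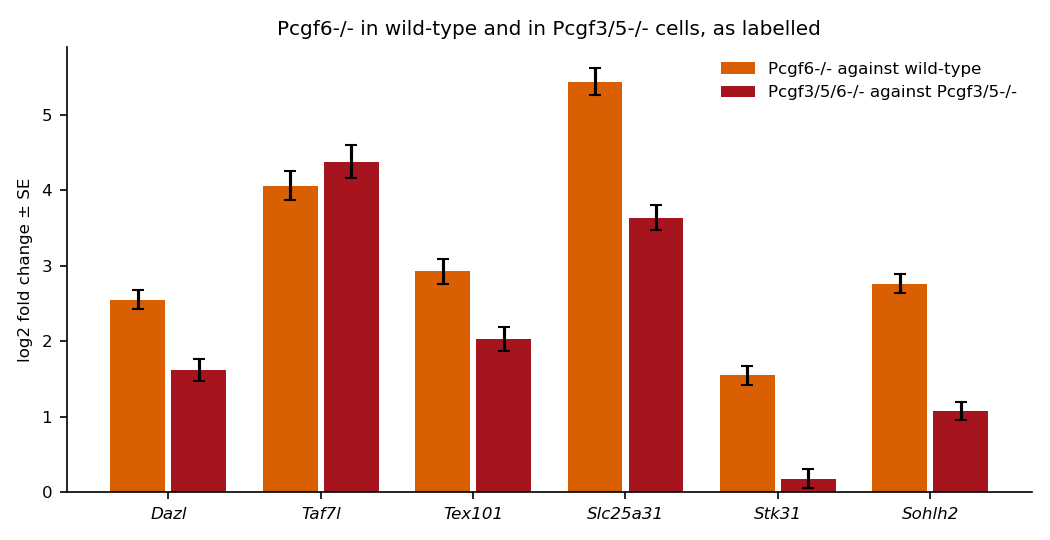
Log2 fold change with its SE (bars from 0, error lines) for Pcgf6-/- against wild-type and for the libraries labelled Pcgf3/5/6-/- against Pcgf3/5-/-, for each of the 6 genes. The second bar is the shorter one for every gene but Taf7l, where the bars reach 4.06 and 4.38.

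Log2 fold changes of the 6 genes lay between -1.11 and 0.60 in Pcgf1-/- cells and between -0.62 and 0.58 in cells labelled Pcgf2/4-/-. In Pcgf1-/- cells 1 of the 6 was higher, Stk31 at 106 and 123 CPM in its pair of libraries (log2 fold change 0.57 ± 0.12 SE, edgeR adjusted p = 0.00294), where 13.9% of genes tested were higher. Lower were 3, where 18.4% of genes tested were: Taf7l (2.16-fold, adjusted p = 0.0104), Sohlh2 (1.45-fold, adjusted p = 0.00752) and Dazl (1.33-fold, adjusted p = 0.0423). The Dazl call was lost under each of the 11 alternatives, with adjusted p of up to 0.277, among them the fit with the wild-type libraries summed. The Taf7l call was lost under 4 of 11 alternatives and the Sohlh2 call under 3. In the libraries labelled Pcgf2/4-/- 2 of the 6 were higher and 0 lower, where 8.1% of genes tested were higher and 13.5% lower. Sohlh2 stood at 51.1 and 55.7 CPM (1.5-fold, adjusted p = 0.00562) and Dazl at 38.5 and 43.8 CPM (1.35-fold, adjusted p = 0.0382). The Dazl call was lost under 7 of 11 alternatives, again with the wild-type libraries summed, and the Sohlh2 call without wild-type replicate 2 and when only these 2 groups were fitted.

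In the libraries labelled Pcgf1/2/4-/- the 6 genes went both ways. Tex101 rose to 60.9 and 52.8 CPM (3.74-fold, log2 fold change 1.90 ± 0.19 SE, edgeR adjusted p = 7.69e-06) and Stk31 to 238 and 255 CPM (3.19-fold, log2 fold change 1.67 ± 0.13 SE, adjusted p = 1e-06). These Stk31 libraries lay just above those of Pcgf6-/- cells, at 216 and 236 CPM, a comparison that was not tested. Sohlh2 fell to 10.7 and 12.6 CPM (3.05-fold lower, adjusted p = 2.05e-05). Dazl, at 24 and 14 CPM, was 1.65-fold lower (adjusted p = 0.00815), and Taf7l, at 1.07 and 3.61 CPM, 2.34-fold lower (adjusted p = 0.0369). Slc25a31, at 4.27 and 1.81 CPM, did not pass the test (log2 fold change -0.55 ± 0.41 SE, adjusted p = 0.312). So 2 of the 6 were higher and 3 lower, where 14.4% of genes tested were higher and 22.6% lower. The members' median log2 fold change was -0.64, beside -0.11 over all genes. Without Pcgf1/2/4-/- replicate 2, or with loess offsets, the Dazl call was lost, and the Taf7l call was lost with 5 of 11 alternatives.

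The libraries labelled Pcgf1/2/4-/- were also set against the lines labelled as lacking part of these genes. Against Pcgf1-/- cells 2 of the 6 were higher (19.6% of genes tested) and 2 lower (22%), and against Pcgf2/4-/- cells 2 were higher (11.6%) and 2 lower (18.4%). In both, Tex101 and Stk31 were the higher ones. Sohlh2 was lower in both, by 2.11-fold and 4.58-fold, together with Slc25a31 in the first and Dazl in the second. The Slc25a31 call against Pcgf1-/- was lost under 3 of 10 alternatives: with loess offsets, without Pcgf1-/- replicate 1 and without Pcgf1/2/4-/- replicate 2. Its log2 fold change ran from -1.90 to -0.68 over the alternatives, with adjusted p of up to 0.309. The change from Pcgf1-/- cells to the libraries labelled Pcgf1/2/4-/- was set beside that from wild-type to the libraries labelled Pcgf2/4-/-, by an interaction in the same fit, also chosen after the values had been seen. It was called for 5 of the 6 genes, and it rests on labels, since Pcgf2 stood at 41 to 57.1 CPM and Bmi1 at 12.1 to 19.9 in both lines. It was called higher for 2 (14.1% of genes tested), Tex101 by 2.17 ± 0.28 SE and Stk31 by 0.97 ± 0.18 SE on the log2 scale. It was called lower for 3 (16.8%): Sohlh2 by -1.66 ± 0.23 SE, Slc25a31 by -1.40 ± 0.47 SE and Dazl by -0.75 ± 0.24 SE. With the wild-type libraries summed into 1 sample, 3 of these 5 calls were left, those of Tex101, Stk31 and Sohlh2, which were kept under all 15 alternatives. The call for Slc25a31 was then lost (adjusted p = 0.0529), as it was under 7 of the 15 alternatives, and that for Dazl (adjusted p = 0.0583) under 8 of 15.

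**Figure D3:**
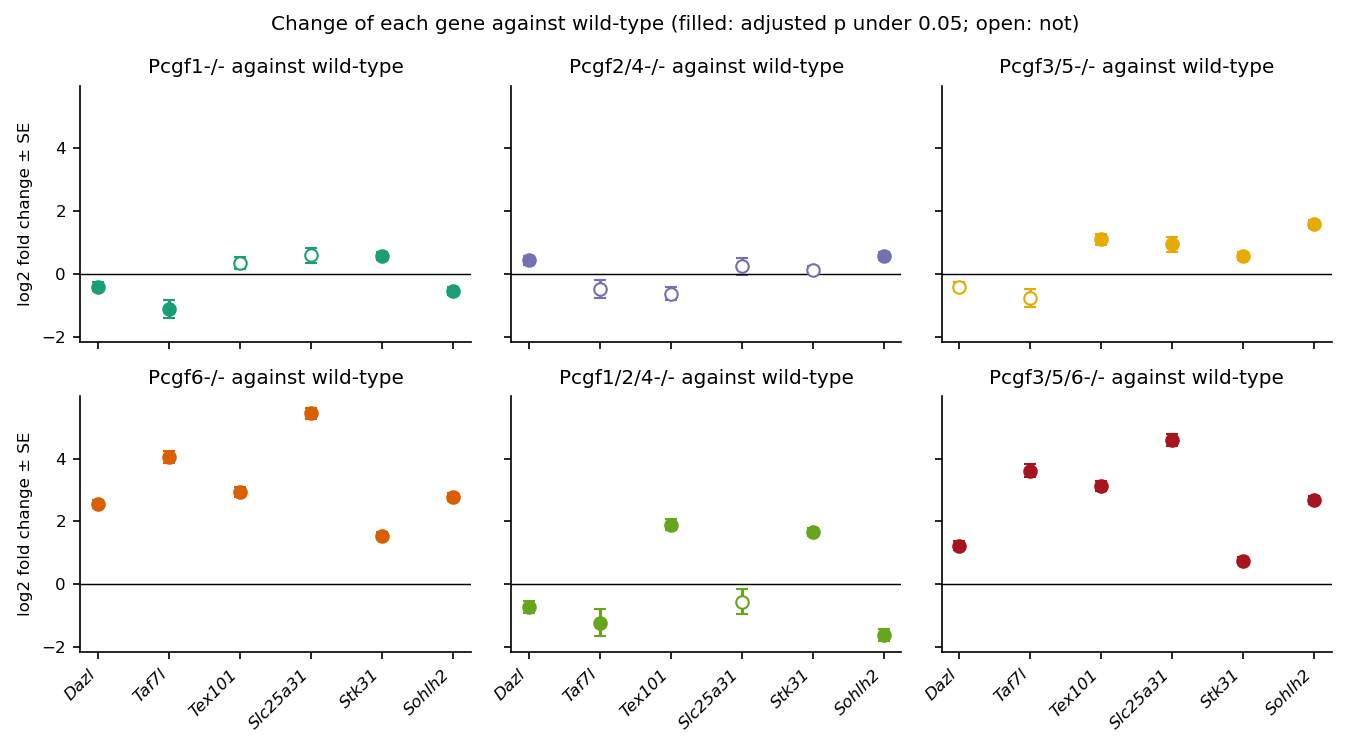
Log2 fold change with its SE for the 6 genes in each knockout against wild-type, from 1 edgeR fit of all 14 libraries. Filled points passed an adjusted p of 0.05. All 6 points lie above 0 in Pcgf6-/- and in the libraries labelled Pcgf3/5/6-/-, and the points fall on both sides of 0 in Pcgf1/2/4-/-.

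Ordered by their means, the 7 genotypes separated in most steps. How often genotypes separate so over all genes tested was not counted, so the order is only described. For Taf7l and Slc25a31 the order began with Pcgf6-/- at 96.0 and 188 CPM, then the libraries labelled Pcgf3/5/6-/- at 70.5 and 104 CPM, and all other genotypes lay at or under 5.75 and 8.36 CPM. For Dazl the third place was held by Pcgf2/4-/- at 41.2 ± 3.74 CPM (SD, n = 2), and the lowest 3, Pcgf3/5-/-, Pcgf1-/- and Pcgf1/2/4-/-, overlapped their neighbours. Tex101 was highest in the libraries labelled Pcgf3/5/6-/-, at 133 ± 2.01 CPM (SD, n = 2), then in Pcgf6-/- at 116 ± 4.07, with no overlap, and lowest in Pcgf2/4-/- at 8.54 ± 4.37. For Sohlh2 the 7 genotypes did not overlap, from 244 CPM in Pcgf6-/- to 11.7 CPM in Pcgf1/2/4-/-. Between Pcgf6-/- and the libraries labelled Pcgf3/5/6-/-, however, neither Tex101 (edgeR adjusted p = 0.269) nor Sohlh2 (adjusted p = 0.526) passed the test. Stk31 began with Pcgf1/2/4-/- at 246 ± 12.1 CPM (SD, n = 2), then Pcgf6-/- at 226 ± 13.7, a step that was not tested. Its Pcgf1-/- and Pcgf3/5-/- libraries overlapped, as did its Pcgf2/4-/- and wild-type libraries.

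Over the 7 genotype means of log2 CPM, the members were not equally alike. Pearson's r between a pair was 0.97 for Taf7l and Slc25a31, 0.94 for Dazl and Taf7l and 0.91 for Dazl and Slc25a31. It was 0.033 for Stk31 and Sohlh2 and 0.28 for Dazl and Stk31. These are descriptions over 7 points that share the same libraries. Among 13404 other genes with at least 5 CPM in some genotype, the 5 most like the mean of the 6 members were Gml (r = 0.9992), Efcab4b (0.9977), Ehd3 (0.9962), Zfp612 (0.9951) and 1700080O16Rik (0.9941). Their log2 fold changes in Pcgf6-/- cells ran from 2.38 for Zfp612 to 8.28 for Efcab4b. The pair most like each member was C86695 and Abcd2 for Dazl, Ankrd44 and Sytl2 for Taf7l, and Srprb and Lhfp for Tex101. It was Hist1h2aa and Crygb for Slc25a31, Zfp622 and Vmn1r65 for Stk31, and Galnt2 and Tspan6 for Sohlh2, with r between 0.9526 (Vmn1r65) and 0.9967 (Hist1h2aa).

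PCGF6 itself was found at the starts of most of the genes. A list of peaks was called by the authors from 1 sample each, and the lists are described without a test, and the fold enrichment and −log10 q of a peak are the authors' values. In wild-type cells 5 of the 6 genes had a PCGF6 peak within 2.5 kb of a start, against 7.47% of the 14218 tested genes with an annotated start. The exception was Sohlh2. Dazl had the strongest peak, at chr17:50432308-50433439, with a fold enrichment of 16.6 and rank 107 of 1868 peaks in its list, and Stk31 was next, with a fold enrichment of 11.5, at chr6:49345239-49346071. The peaks of Taf7l, Tex101 and Slc25a31 had a fold enrichment of 9.0, 6.9 and 6.9.

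All of these peaks were absent from the PCGF6 list of Pcgf6-/- cells, where 0 of the 6 genes had one and 2.12% of genes did. At the same genes peaks were listed in the other lines. In Pcgf3/5-/- cells 5 of 6 had a peak (7.05% of genes), without Sohlh2. In Pcgf1-/- cells (23.2% of genes) and in Pcgf2/4-/- cells (42.3%) all 6 had one, but these lists held 5528 and 12842 peaks, so a gene is more readily reached in them. In the line labelled Ring1a-/-_Ring1bfl 6 of 6 had a PCGF6 peak (8.17% of genes), and in the same line without RING1A and RING1B, labelled Ring1a/b-/-, 5 of 6 (6.67%), again without Sohlh2.

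Knockdown of MGA or E2F6 was profiled with the PCGF6 antibody. After the control hairpin all 6 genes had a PCGF6 peak, with 25.9% of genes and 7451 peaks in that list. Under shMGA 0 of 6 had one (1.01% of genes, 468 peaks). Under shMGAdHLH (2.95%) and under shE2F6 (2.5%) 3 of 6 had one, and in both lists these were Dazl, Slc25a31 and Stk31. Under shE2F6-MGAdHLH only Dazl, 1 of 6, had one (1.13% of genes), with a fold enrichment of 6.03 against 20.6 after the control hairpin. Taf7l, Tex101 and Sohlh2 had none in these 4 lists. The lists after knockdown held 355 to 733 peaks, fewer than the control list, and how the number of peaks called bears on these counts was not tested.

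RING1B, the ubiquitin ligase of the complex, had a peak at 4 of the 6 genes in wild-type cells (16.5% of genes): Dazl, Slc25a31, Stk31 and Sohlh2. The count was 5 in Pcgf1-/- (17.1%) and Pcgf2/4-/- cells (19.7%), where Taf7l was added, and 6 in Pcgf3/5-/- cells (17.2%). In Pcgf6-/- cells 0 of the 6 had a RING1B peak, while 13% of all genes did and the list held 5563 peaks, more than the 5454 of wild-type. The list labelled Pcgf3/5/6-/- also had 0 of 6 (7.53% of genes). The 2 lists of Pcgf1/2/4-/- cells had 4 of 6 (8.21%) and 5 of 6 (7.47%), with Dazl, Tex101, Slc25a31 and Stk31 in both. Dazl ranked 91 of 2051 and 45 of 1814 by fold enrichment there, against 2392 of 5454 in wild-type. Ranks from lists of such different lengths show no change in binding by themselves.

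**Figure D4:**
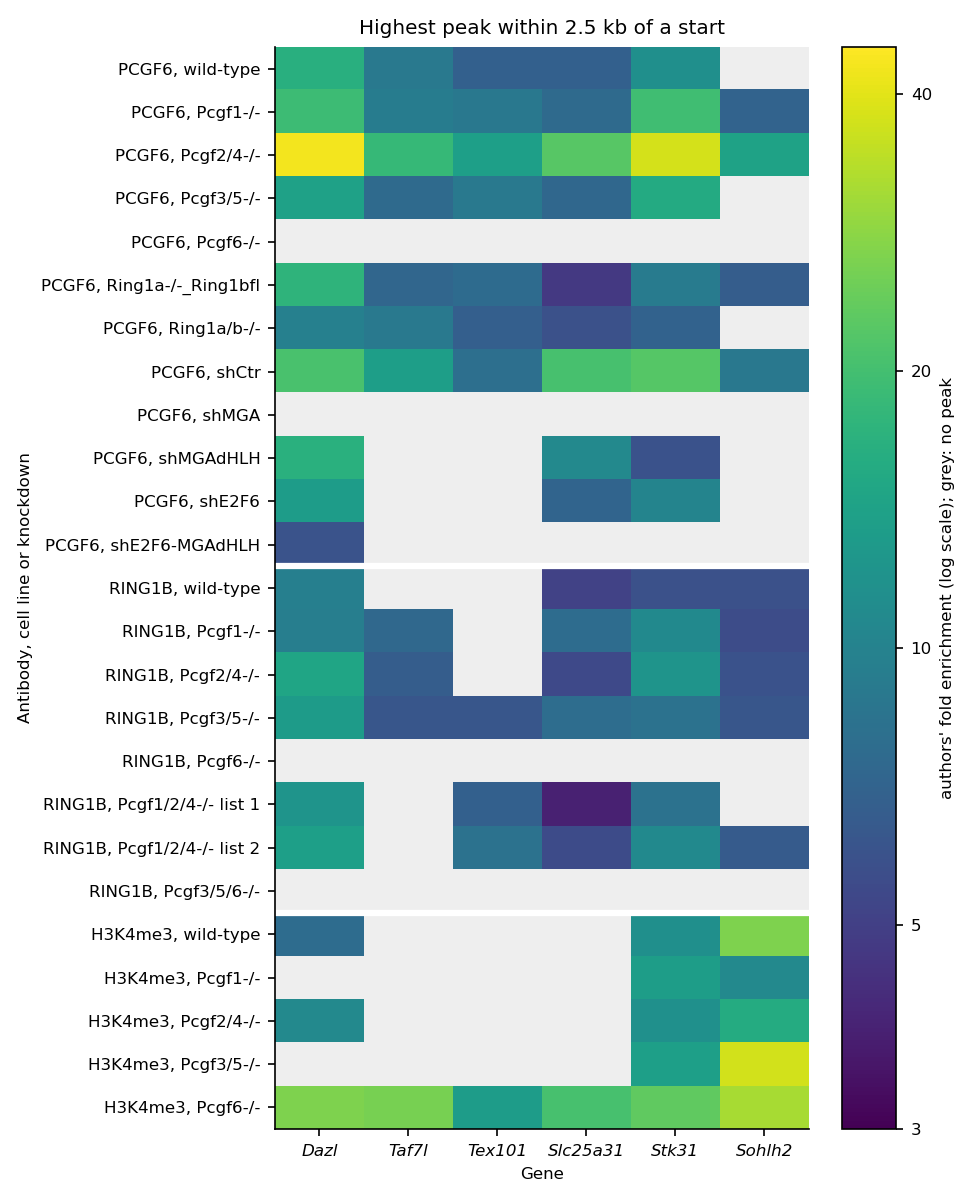
Highest fold enrichment, as given by the authors on a log colour scale, of a PCGF6, RING1B or H3K4me3 peak within 2.5 kb of a start, for each gene (columns) and each list (rows). Grey cells have no peak. The rows for Pcgf6-/- are grey for PCGF6 and RING1B and filled for H3K4me3, and the PCGF6 row for shMGA is grey.

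H3K4me3 was listed at more of the genes in Pcgf6-/- cells. In wild-type cells 3 of the 6 genes, Dazl, Stk31 and Sohlh2, had an H3K4me3 peak, against 88.6% of genes. Taf7l, Tex101 and Slc25a31 had none in the lists of wild-type, Pcgf1-/-, Pcgf2/4-/- or Pcgf3/5-/- cells. The counts were 2 of 6 in Pcgf1-/- (87.6% of genes), 3 in Pcgf2/4-/- (88.3%) and 2 in Pcgf3/5-/- cells (87.7%). All 6 had one in Pcgf6-/- cells, with 89.8% of genes. The fold enrichment there was 21.4 at Dazl against 7.83 in the overlapping wild-type peak, 23.2 against 11.6 at Stk31, and 31.6 against 26.7 at Sohlh2. Dazl had another peak in Pcgf6-/- cells, nearest its inner start, with a fold enrichment of 26.6. A peak at that place was also listed in Pcgf2/4-/- cells, at 10.7, but not in wild-type. At the 3 genes without a wild-type peak the fold enrichment in Pcgf6-/- cells was 25.9 for Taf7l, 20.4 for Slc25a31 and 13.5 for Tex101. Sohlh2, which rose in Pcgf3/5-/- cells, had a fold enrichment of 37.2 in that list.

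H3K36me3, a mark laid down over the bodies of transcribed genes, was listed over few of them. In wild-type, Pcgf1-/- and Pcgf2/4-/- cells 0 of the 6 gene bodies overlapped an H3K36me3 peak, where 56.2%, 60.7% and 56.1% of genes did. In Pcgf3/5-/- cells (61.2% of genes) peaks covered 24.3% of the body of Sohlh2 and 0.629% of that of Stk31. Peaks in Pcgf6-/- cells (61%) covered 6.6% of Dazl, 5.63% of Stk31 and 3.38% of Sohlh2, and none of Taf7l, Tex101 or Slc25a31. The median gene had 8.19% of its body in peaks in that list.

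The marks written by the Polycomb complexes were not called at these genes in wild-type cells. H2AK119ub1 had 0 of 6 (3.69% of genes), H3K27me3 0 of 6 (13.1%) and SUZ12 0 of 6 (17.7%). In Pcgf6-/- cells the counts were again 0 for H2AK119ub1 (7.14%), H3K27me3 (14.1%) and SUZ12 (15.1%). They were also 0 in the lists labelled Pcgf3/5/6-/- for H2AK119ub1 (39%), H3K27me3 (21%) and SUZ12 (13.4%).

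In the lists labelled Pcgf1-/-, Pcgf2/4-/- and Pcgf3/5-/-, peaks of these marks and of SUZ12 were present at some of the genes. For H3K27me3 these lists held 20147, 112110 and 21239 peaks, against 8063 in wild-type. For H2AK119ub1 they held 10882, 121944 and 128786, against 1741, and for SUZ12 5624, 8077 and 6365, against 6473. A gene is more readily reached in a longer list. H3K27me3 had a peak at 5 of the 6 genes, all but Stk31, in Pcgf1-/- (19.8% of genes), Pcgf2/4-/- (37.5%) and Pcgf3/5-/- cells (21.7%). H2AK119ub1 had one at 4 in Pcgf1-/- (10.1%), 5 in Pcgf2/4-/- (45.6%) and 6 in Pcgf3/5-/- cells (79.8%). By the last share most genes had an H2AK119ub1 peak in that list. SUZ12 had one at 2 genes in Pcgf1-/- (16.3%), 1 in Pcgf2/4-/- (23.9%) and 4 in Pcgf3/5-/- cells (18.5%). In Pcgf1/2/4-/- cells H2AK119ub1 had 0 of 6 in both lists (1.75% and 0.844%), H3K27me3 had 1, Dazl (5.11%), and SUZ12 had 3 (13.6%).

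Other PCGF proteins were rarely called at these starts. PCGF1 and PCGF2 had 0 of 6 in wild-type cells (2.48% and 14.4% of genes) and 0 of 6 in Pcgf6-/- cells (11.4% and 22.6%). PCGF2 had 1 of 6, Dazl, in the list labelled Pcgf2/4-/- (5.04%), where the antibody's own target is knocked out by label. The fold enrichment of that peak was 7.18, and what it reflects was not tested. PCGF1 had 1 of 6, Dazl, in the list labelled Ring1a-/-_Ring1bfl (40.2%). PCGF3 had 1 of 6, Stk31, in wild-type cells (1.28%) and in the list labelled Pcgf2/4-/- (0.619%). PCGF3 in Pcgf6-/- cells had 3 of 6, Dazl, Slc25a31 and Stk31 (3.24%), in a list of 612 peaks against 223 in wild-type.

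WDR5, another subunit of the complex, had a wild-type peak at 4 of the 6 genes (13% of genes): Dazl, Taf7l, Slc25a31 and Stk31. USF1, a factor that binds E-boxes, also had 4 of 6 (22.9%): Dazl, Tex101, Slc25a31 and Stk31. The E-box printed above for Stk31 lay 6 bp from the USF1 summit and 47 bp from the PCGF6 summit. That of Slc25a31 lay 25 bp from the USF1 and 37 bp from the PCGF6 summit. At Taf7l the E-box lay 1440 bp from the PCGF6 summit, which sat 103 bp before an inner annotated start of the gene, and Taf7l had no USF1 peak. Over whole lists, 75.9% of the USF1 peaks and 25.7% of the PCGF6 peaks held an E-box within the 300 bases around the summit. That share was 24% after the control hairpin, 13% under shMGA, 24.7% under shMGAdHLH, 32.9% under shE2F6 and 19.2% under shE2F6-MGAdHLH. Around single summits of members whose promoter window lacked the letters, the 300 bases at the USF1 summit of Dazl held 2 E-boxes and 1 E2F6 core. Those at the wild-type PCGF6 summit of Tex101 held 1 E2F6 core, those at the PCGF6 summit of Sohlh2 after the control hairpin held 2, and those at the wild-type PCGF6 summit of Dazl held none of the 3.

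**Figure D5:**
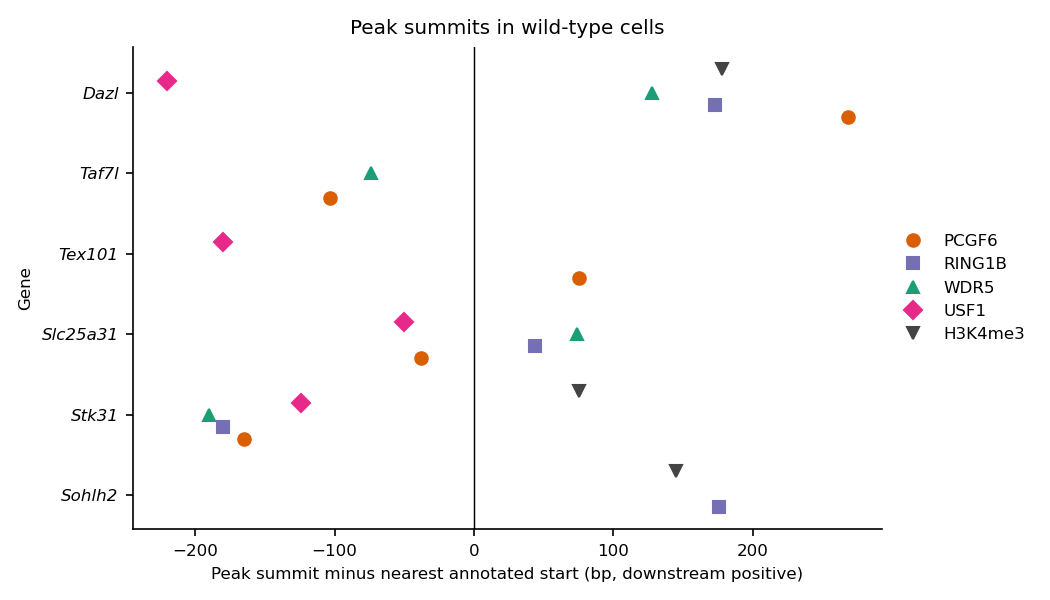
Distance in bp from the nearest annotated start to the summit of each PCGF6, RING1B, WDR5, USF1 and H3K4me3 peak in wild-type cells, downstream to the right. Summits lie between -220 and 268 bp of a start. Sohlh2 has RING1B and H3K4me3 summits and no PCGF6 summit.

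Other genes of germ cell identity moved less uniformly than the 6. The 6 and these other genes were chosen with earlier results of these data known, so the contrast is only described. Of 35 drawn up as a list, 33 were in the table and 31 were tested. In Pcgf6-/- cells 19 of the 31 were higher and 6 lower, with a median log2 fold change of 0.86, beside 27.8% and 18.6% of all genes tested. The 3 with the largest fitted log2 fold changes were Asz1, Sohlh1 and Nobox. Asz1, a mitochondrial surface protein of the piRNA pathway, went from 0.357 to 134 CPM (log2 fold change 8.47 ± 0.37 SE, edgeR adjusted p = 7.59e-10). Nobox, an oocyte transcription factor, stood at 0.0713 CPM in wild-type, too few counts for a fold change, and at 3.74 CPM in Pcgf6-/- cells. Sohlh1, the partner of SOHLH2, had 0 counts in wild-type and 3.78 CPM in Pcgf6-/- cells, at least 17.8-fold higher with a floor of 3 counts over the group. In the libraries labelled Pcgf3/5/6-/- it stood at 16.2 CPM, at least 76.2-fold higher. There 16 of the 31 were higher and 5 lower, beside 28% and 25.3% of all genes. In Pcgf3/5-/- cells 7 were higher and 8 lower (11.1% and 10.4% of all genes), and in the libraries labelled Pcgf1/2/4-/- 1 and 7 (14.4% and 22.6%). In Pcgf1-/- cells 7 were higher and 8 lower (13.9% and 18.4%), and in the libraries labelled Pcgf2/4-/- 4 and 10 (8.1% and 13.5%). Of the 33 with a start, 9 had a PCGF6 peak and 13 a RING1B peak in wild-type cells, where 7.47% and 16.5% of genes did. In Pcgf6-/- cells 0 and 8 had one, where 2.12% and 13% did.

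Of 7 paralogs and partners of the members, 4 were higher and 0 lower in Pcgf6-/- cells, beside 27.8% and 18.6% of all genes tested. They were Sohlh1, Tdrd1, a Tudor protein of germ granules (log2 fold change 5.62 ± 0.31 SE, edgeR adjusted p = 5.86e-09), Ly6k, a germ cell surface protein that binds TEX101 (4.09 ± 0.17 SE, adjusted p = 4.89e-10), and Boll, the DAZ family paralog of Dazl (3.85 ± 0.20 SE, adjusted p = 3.76e-09). Ly6k rose in Pcgf3/5-/- cells as well (2.45 ± 0.18 SE, adjusted p = 9.44e-07). The 3 paralogs of general use, Taf7, Slc25a4 and Slc25a5, did not pass the test in Pcgf6-/- cells.

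Of 14 subunits of the complex, 2 were higher and 3 lower in Pcgf6-/- cells, 1 of the lower being Pcgf6 itself, beside 27.8% and 18.6% of all genes tested. Mga, a DNA-binding subunit, was lower, from 221 to 113 CPM (log2 fold change -0.97 ± 0.12 SE, edgeR adjusted p = 1.43e-05), as was Ring1, which encodes RING1A, from 7.5 to 3.88 CPM (-0.94 ± 0.27 SE, adjusted p = 0.0114). E2f6, another DNA-binding subunit, was higher, from 13.2 to 20.6 CPM (0.64 ± 0.22 SE, adjusted p = 0.0258). So was Yaf2, from 24.9 to 42.6 CPM (0.77 ± 0.13 SE, adjusted p = 0.000222). Mga was also lower in the libraries labelled Pcgf3/5/6-/- (log2 fold change -1.31 ± 0.12 SE, adjusted p = 1.25e-06) and in those labelled Pcgf1/2/4-/- (log2 fold change -1.13 ± 0.13 SE, adjusted p = 1.96e-05). Among 10 enzymes of DNA and linked histone methylation, 1 was higher and 4 lower in Pcgf6-/- cells, beside the same shares of all genes. Of the enzymes that set DNA methylation anew, Dnmt3b was lower, from 152 to 67.5 CPM (log2 fold change -1.18 ± 0.15 SE, edgeR adjusted p = 2.28e-05), and Dnmt3a higher, from 35.9 to 76.1 CPM (1.08 ± 0.14 SE, adjusted p = 1.52e-05). Tet1, which oxidises methylated cytosine, was lower, from 355 to 193 CPM (-0.88 ± 0.14 SE, adjusted p = 0.000157).

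Some markers of other cell types also changed in Pcgf6-/- cells, not all of them upward, and their part in the results was not tested. All 4 of 4 tested markers of 2-cell-like cells were higher in Pcgf6-/- cells, where 27.8% of genes tested were. Their summed level was 414 to 451 CPM against 89.5 to 90.6 in wild-type and 233 to 236 in the libraries labelled Pcgf3/5/6-/-. In the other 4 knockouts that sum was 2.51 to 42.2 CPM, below wild-type. Of 8 trophoblast markers 5 were higher in Pcgf6-/- and 6 in the libraries labelled Pcgf3/5/6-/-, and 2 of the 8 were lower in each. Their sums were 462 to 483 and 1310 to 1340 CPM against 255 to 270. Of all genes tested, 27.8% were higher and 18.6% lower in Pcgf6-/- cells, and 28% and 25.3% in the libraries labelled Pcgf3/5/6-/-. Summed pluripotency markers stood at 2130 to 2290 CPM in Pcgf6-/- against 2440 to 2450 in wild-type, and 0 of the 10 were at 0. Late spermatid markers summed to 5.36 to 7.47 CPM in Pcgf6-/- against 0.281 to 0.285, with Prm1, Tnp2 and Acrv1 at 0. Oocyte markers summed to 44.1 to 52.8 against 85.8 to 88.6, nearly all of it Zp3, with Oosp1 and Zp1 at 0. Of the 3 oocyte markers tested in Pcgf6-/- cells against wild-type, however, 2 were higher and 1 lower. Sertoli cell markers summed to 36.5 to 40.3 against 36.9 to 39.7, with Amh and Inha at 0. Fibroblast markers summed to 24.1 to 28.4 against 7.45 to 10.6, with Dcn and Twist2 at 0. Primitive endoderm markers summed to at least 114 CPM in Pcgf6-/- against 69.2 to 76.2 in wild-type, with Gata6, Gata4, Sox17, Dab2 and Foxa2 at 0 in wild-type and none of the 8 markers at 0 in Pcgf6-/-.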

How the data were processed

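The 6 genes, the gene lists and the tests were chosen with earlier results of these data known. Gene counts were deposited by the authors as whole-number reads per gene, without normalization. Per the submitters' processing notes, bcl2fastq 2, TopHat2 2.1.1, Bowtie 1.2.2, Picard 1.62, HTSeq 0.7.2, DESeq2 3.7 and MACS2 2.1.1 were used, on build mm9, without a stated role for each. The authors' deposited tables gave log2 fold changes, adjusted p-values and mean normalized values on a signal scale, and the last were not used here. Peaks were deposited by the authors, 1 list a sample, each peak with its fold enrichment (a ratio) and its −log10 p and −log10 q, named so in the header. All peaks lay on chromosome names of NCBIM37 (mm9), annotated with GENCODE M1.

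Counts of all 14 libraries entered 1 edgeR 4.0.16 quasi-likelihood fit in R 4.3.3 (limma 3.58.1), with TMM factors after filterByExpr and Benjamini-Hochberg adjustment over 15464 genes, at a threshold of 0.05. CPM values used TMM-adjusted library sizes. The wild-type libraries were counted as 1 sample in means and SDs, while the fit held them as 2. The fit was run on simulated counts drawn with the same dispersion for every gene and genotype. The real library pairs differed in spread, so no conclusion is drawn from that run. The common dispersion gave a biological coefficient of variation of 12.3%.

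Named were the 6 genes; of each list, by counts, with values for the 3 with the largest absolute log2 fold change past the threshold; and the genes most like the members over 7 genotype means (log2 CPM, prior count 2, at least 5 CPM in some genotype). Other genes with values, among them Taf7, Slc25a5, Slc25a4, Boll, E2f6 and Yaf2, were named after their values were seen. Alternatives were RLE factors, DESeq2 1.42.0, no filter on low counts, loess offsets, the replicate number as a block, only the compared groups, a log2 fold change of at least 1, each library left out, and, for peaks, windows of 1 and 5 kb, a −log10 q of at least 5, summits only and the outermost start alone. Summing the wild-type libraries into 1 sample, the interactions and all alternatives to the interactions were added after seeing the data. Counts carry counting error only as far as reads are independent molecules. The peak lists of the series held none of H3K4me3 in Pcgf1/2/4-/- or Pcgf3/5/6-/- cells.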

Additional observations from a re-analysis of the deposited data

Results flagged for a closer look

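For 5 genes the change from Pcgf3/5-/- cells to the libraries labelled Pcgf3/5/6-/- differed from that between wild-type and Pcgf6-/- cells by an interaction term in the edgeR fit. The fit held 2 libraries a group, also for wild-type, which was counted as 1 sample elsewhere. Of all genes tested, 20.2% were called lower and 14.6% higher by this term. The difference in log2 fold change was -0.93 for Dazl (adjusted p = 0.00199), -0.90 for Tex101 (0.00705), -1.80 for Slc25a31 (0.000174), -1.37 for Stk31 (5.3e-05) and -1.69 for Sohlh2 (6.91e-06). Each of the 5 changed less from Pcgf3/5-/- cells. Pcgf6 stood at 42.0 and 37.2 CPM in the libraries labelled Pcgf3/5/6-/-, so the comparison rests on their label.

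For 5 genes the change from Pcgf1-/- cells to the libraries labelled Pcgf1/2/4-/- differed from that between wild-type and the libraries labelled Pcgf2/4-/- by the same kind of term. Of all genes tested, 14.1% were called higher and 16.8% lower by it. Pcgf2 stood at 41 to 57.1 CPM and Bmi1 at 12.1 to 19.9 in these libraries, so this too rests on labels. The difference was 2.17 for Tex101 (adjusted p = 8.23e-05) and 0.97 for Stk31 (0.000917), and -0.75 for Dazl (0.0264), -1.40 for Slc25a31 (0.037) and -1.66 for Sohlh2 (0.000118). The calls for Dazl and Slc25a31 were lost with the wild-type libraries summed into 1 sample. Taf7l passed neither test, with adjusted p of 0.485 and 0.698.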

How the results depend on the processing

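The 6 genes stayed higher in Pcgf6-/- and in the libraries labelled Pcgf3/5/6-/- under the 11 alternatives to the fit, with a largest adjusted p of 2.69e-05 (Stk31) and 0.0049 (Stk31). Of 634 single values, 574 kept their call and direction, 45 lost a call, 10 gained one and 5 changed sign, none of the 5 a called value. The cause was not tested. Slc25a31 in Pcgf2/4-/- was -0.20 without Pcgf2/4-/- replicate 2 (range over libraries left out -0.20 to 0.41), Taf7l in Pcgf1/2/4-/- against Pcgf1-/- was 0.24 with loess offsets, 0.091 without Pcgf1-/- replicate 1 and 0.39 without Pcgf1/2/4-/- replicate 1 (range -1.36 to 0.39), and Sohlh2 in Pcgf3/5/6-/- against Pcgf6-/- was 0.056 with loess offsets. With a log2 fold change of at least 1, the members raised numbered 0 in Pcgf1-/-, 0 in Pcgf2/4-/-, 2 in Pcgf3/5-/-, 6 in Pcgf6-/- and 5 in the libraries labelled Pcgf3/5/6-/-. In Pcgf2/4-/- against wild-type, 1 was raised with no filter, 1 with the wild-type libraries summed and 0 with only the 2 groups. In Pcgf3/5/6-/- against Pcgf6-/-, 1 was raised with loess offsets and 1 with only the 2 groups. Leaving out 1 library gave 1 to 3 raised in Pcgf1-/- and 0 to 2 in Pcgf2/4-/-. With the replicate number as a block, 1 was raised in Pcgf2/4-/- against wild-type. The numbers do not pair the libraries: over 21 pairs of groups, the deviations correlated between -0.46 and 0.38, 3 of them over 0.1. Of 180 values of the interactions, 162 kept their call and direction, 16 lost a call and 2 changed sign, both of Taf7l, which was not called: -0.034 for Pcgf3/5/6-/- without wild-type replicate 1 (range over libraries left out -0.034 to 0.60) and -0.89 for Pcgf1/2/4-/- without its replicate 2 (range -0.89 to 0.85). In the interaction of Pcgf1/2/4-/-, 3 of the 6 genes were called with loess offsets, 3 with only the 4 groups and 3 with the wild-type libraries summed, and 3 to 5 with 1 library left out. In that of Pcgf3/5/6-/- 5 were called, or 4 to 5 with 1 library left out, and the replicate block left 5 in both. RLE factors moved the median of all genes in Pcgf3/5/6-/- to 0.12. In the 55 peak lists described, the count of members with a peak was the same number under all 5 alternatives. Depth limits mainly Taf7l and Slc25a31, at 1.07 to 8.44 CPM outside Pcgf6-/- and the libraries labelled Pcgf3/5/6-/-.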
